A study of Homo sapiens with 6 samples.

Results

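The nuclear receptors other than the steroid receptors were followed in Ishikawa cells, an endometrial adenocarcinoma line. The group holds 41 genes, taken by symbol from a fixed list: the receptors for retinoids, thyroid hormone, vitamin D, fatty acids, oxysterols, bile acids and xenobiotics, and the orphan receptors. All 41 were found among the 26364 genes of the count table. A total of 23 were expressed, meaning a mean of at least 1 CPM (the count scaled to the size of its library) over the 6 libraries, and 18 lay below that level. RARA and NR6A1 were among 7 expressed receptors higher with estradiol in all 3 lines (30.4%, against 27.3% of tested genes at that level). RARG and RARB were among those lower with it in both knockout clones. NR2F1 was 1 of 8 with all 4 clone libraries above both parental libraries (34.8%, against 8.21%). None of these differences passed edgeR's tests without pairing and with no line left out. DESeq2 called RARA and NR6A1 for estradiol (5.39% of all genes called) and NR2F1 for the knockout (2.19%). RARA, NR6A1, RARG and RARB passed in the paired edgeR fit of the clones, in which 15.0% of all genes passed.

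The 6 libraries came from parental Ishikawa cells and from ETV4 knockout (KO) clone 1 and clone 2. ETV4 is a transcription factor of the ETS family. From each line, 1 library was made from cells given 0.1% DMSO as vehicle and another from cells given 10 nM E2 (17β-estradiol, the ligand of the estrogen receptor). All cells had been moved to hormone-depleted medium beforehand, with charcoal-dextran treated serum, which lowers the supply of lipophilic ligands of several of these receptors as well. Treatment lasted 8 h according to the treatment and extraction protocols but 1 h according to the sample characteristics. Each knockout line is a single clone, so line and genotype cannot be told apart for the parental cells, and the parental line has no replicate of its own.

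Nuclear receptors are transcription factors that bind DNA through a pair of zinc fingers and, in most members, a small lipophilic ligand through a separate domain. The receptors for retinoic acid, thyroid hormone, vitamin D, fatty acids and oxysterols bind DNA mostly as heterodimers with a retinoid X receptor (RXR). Orphan receptors have no settled natural ligand, and several of them act at all times as repressors or activators. In the endometrium, retinoic acid signalling takes part in the response of the tissue to ovarian hormones.

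The libraries held 28037392 to 36829479 counts. The knockout was checked first on ETV4 itself: the parental line gave 586 counts under vehicle and 1063 under E2, clone 1 gave 122 and 86, and clone 2 gave 71 and 81. All 10 epithelial markers, among them EPCAM, CDH1 and ESR1, were at 1 CPM or more in every library, with a summed level of 3393 to 3618 CPM in DMSO and 2657 to 2880 CPM in E2. Of the markers of other cell types, 2 of 7 stromal, 1 of 6 leukocyte, 1 of 4 endothelial and 0 of 4 hepatocyte genes reached that level in every library, and the T cell genes CD3E and CD3D had 0 counts throughout. Because these are bulk libraries, fewer cells expressing a gene and less of its RNA per cell cannot be told apart.

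**Figure D1:**
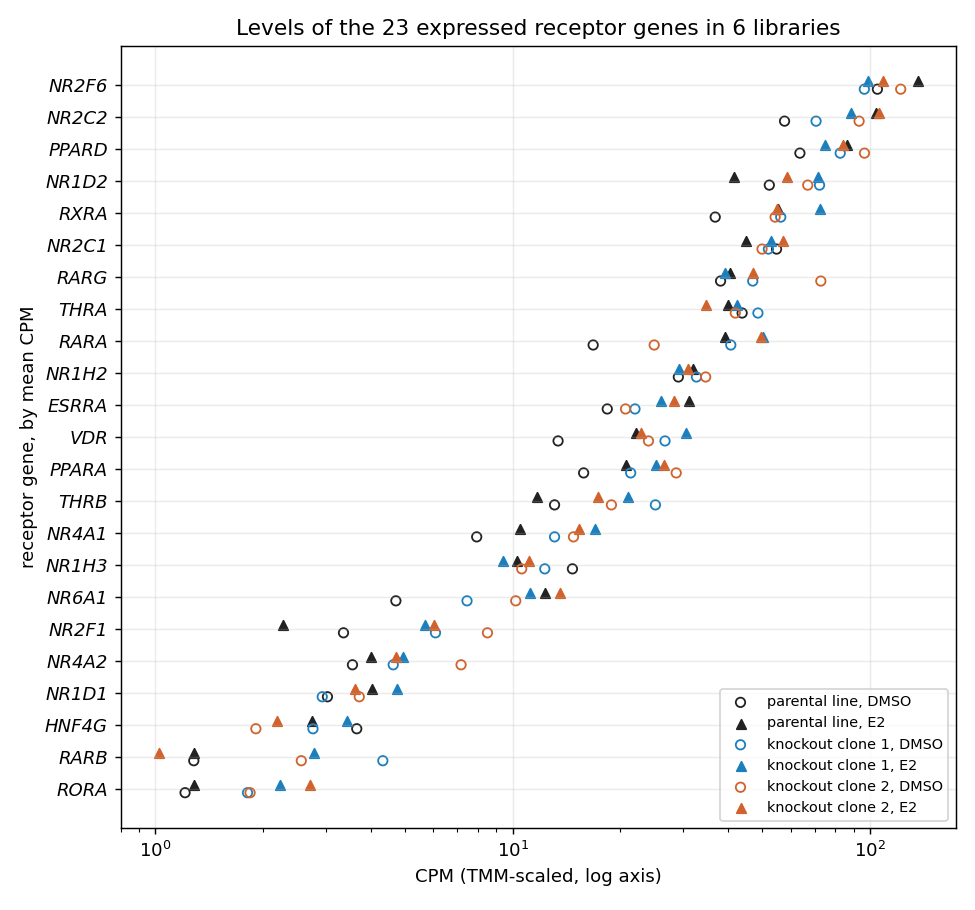
Level of each of the 23 expressed receptor genes (rows, ordered by mean) on a log axis in CPM. Open circles are DMSO and filled triangles E2 libraries, 1 point per library, in black for the parental line, blue for clone 1 and orange for clone 2; levels ran from NR2F6 at a mean of 111 CPM to RORA at 1.85 CPM.

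Levels of different genes were compared per kilobase of exon. Exon lengths come from GENCODE and the annotation used for counting is not given, so the order depends on those lengths. NR2F6, an orphan receptor of the COUP-TF branch that mostly represses transcription, was the most abundant at a mean of 46.2 CPM per kb. RXRA, the shared heterodimer partner, followed at 29.8 CPM per kb, with libraries between 20.0 and 39.3 that did not overlap those of NR2F6. That place rests on an exon length of 1846 bases. By mean CPM alone, RXRA (55.1) stood under NR2C2 (86.7), PPARD (81.4) and NR1D2 (60.5) as well as NR2F6. PPARD, a receptor for fatty acids, had 18.3 CPM per kb, NR1H2, the broadly expressed oxysterol receptor LXRβ, had 15.0, and RARG had 13.8. NR1D2, NR2C1, NR2C2, ESRRA and RARA had means of 11.5, 11.3, 10.1, 9.98 and 8.88 CPM per kb, and the libraries of these 5 overlapped, as did those of PPARD, NR1H2 and RARG. At the other end stood RARB at 0.687, HNF4G at 0.625 and RORA at 0.160 CPM per kb. All 23 expressed receptors were at 1 CPM or more in every library.

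Paralogs differed in level. Among the COUP-TFs, NR2F6 had a mean of 46.2 CPM per kb and NR2F1 1.38, while NR2F2, a receptor known from endometrial stroma, had 10 to 21 counts per library. The fatty acid receptors were PPARD and PPARA (18.3 and 2.29 CPM per kb). PPARG, the adipogenic paralog, had 9 to 13 counts per library in the parental line and clone 1, and 0 and 1 in clone 2. Closest to the threshold were RORA (mean 1.85 CPM) and RARB (2.21 CPM) on the upper side, and RORB (0.979 CPM) and NR5A2 (0.892 CPM) on the lower.

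Of the 18 receptors listed under 1 CPM, 8 had enough counts to be tested and 10 did not. RXRB, treated separately below, is counted in the 10. RORB, a circadian and neural receptor, had 12 and 16 counts in the parental line, 74 and 48 in clone 1 and 25 and 14 in clone 2. NR5A2, the bile acid and steroidogenic regulator LRH-1, had 12 to 49 counts per library, and NR4A3, an immediate-early orphan, had 10 to 39. NR1I3, the xenobiotic receptor CAR, had 5 to 25 counts and shares 661 exon bases with TOMM40L on the opposite strand, and NR2E1, a neural stem cell repressor, had 5 to 16. ESRRG had 22 and 5 counts in clone 1, 3 and 1 in the parental line and 0 in both libraries of clone 2. HNF4A, a regulator of liver and gut genes, had 5 and 11 counts in the parental line, 6 and 0 in clone 1 and 0 and 1 in clone 2. NR2E3 had 2 to 8 counts, NR1H4 (the bile acid receptor FXR) 1 to 4, NR5A1 0 to 3, ESRRB 0 to 3, and NR0B2 0 to 3. NR1I2, the xenobiotic receptor PXR, and RXRG each had at most 1 count in any library. NR0B1 had 0 counts in all libraries, which allows up to 0.0802 to 0.103 CPM (3 counts, counting error only).

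RXRB was listed at 0 in all libraries. So were PFDN6 and VPS52, which lie beside it and are used by every cell, and RPS18, a ribosomal protein gene of the same stretch, had at most 1 count per library. Of the 20 protein-coding genes nearest to RXRB (10 on each side in the order of the GRCh38.p14 RefSeq annotation), 19 had a mean under 10 counts and 12 were at 0 throughout. The share was 95.0%, against 29.7% of the 17909 protein-coding genes in the table. The value for RXRB is therefore given only as listed at 0, with no limit on its level, and the cause was not tested.

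Between the treatments, the tests asked which receptors differed between E2 and DMSO over the 3 lines, using the quasi-likelihood test of edgeR, with p-values adjusted by Benjamini and Hochberg's method and a threshold of 0.05. None of the 31 receptors tested passed, where 176 of all 15611 genes (1.13%) did. At an unadjusted p under 0.05 there were 4 receptors of 31, RARA, NR6A1, ESRRA and NR2C2, all higher in E2. This is a smaller share than that of all genes, of which 3180 (20.4%) were under it. DESeq2, which tested 39 receptors, called 2 of them, RARA and NR6A1, among 1111 genes (5.39%), near the share of all genes. With each library paired with the other library of its line (the replicate block), 384 genes (2.46%) passed and again 0 receptors. The median log2 change of the 23 expressed receptors was 0.03, beside -0.03 over all 13308 tested genes at 1 CPM or more.

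**Figure D2:**
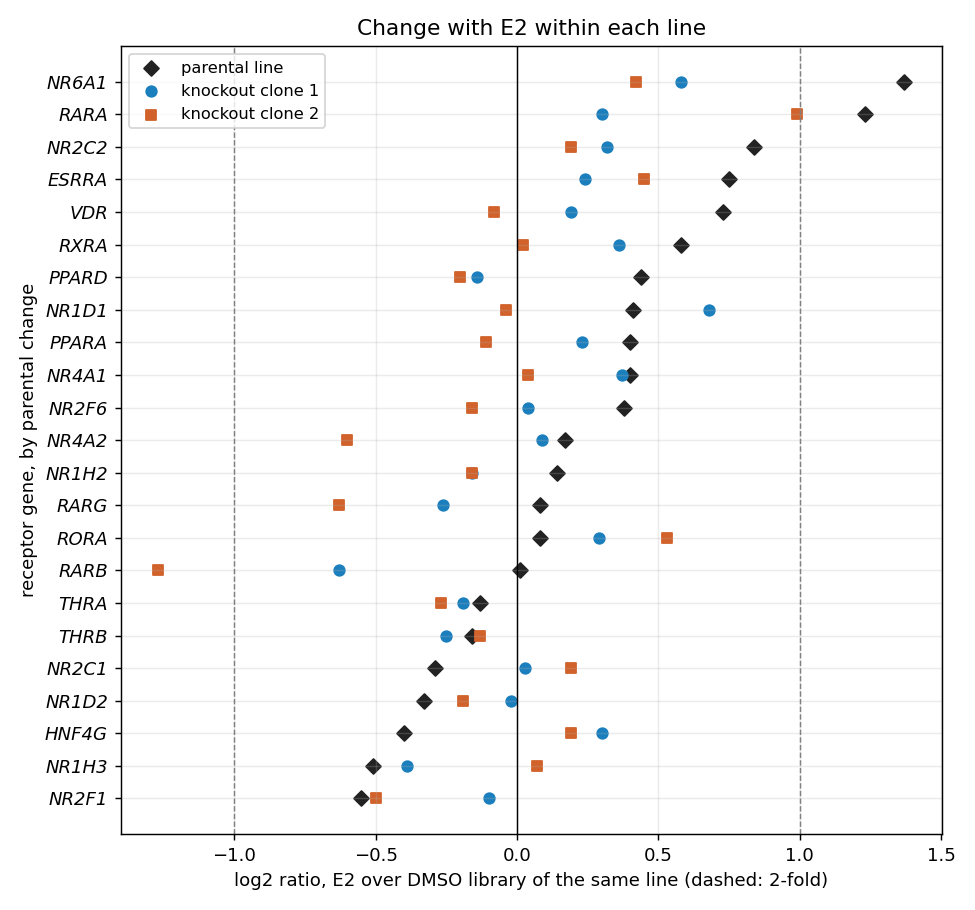
Change with E2 for the 23 expressed receptor genes (rows, ordered by the parental value) as the log2 ratio of the E2 over the DMSO library of the same line, with dashed lines at 2-fold. Diamonds are the parental line, circles clone 1 and squares clone 2; RARA and NR6A1 passed 2-fold upward in the parental line and RARB downward in clone 2.

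RARA, RARB and RARG encode the 3 retinoic acid receptors. The upstream sequence of RARA and RARB is shown because these receptors are themselves targets of hormone receptors, and RARB is the textbook gene with a retinoic acid response element. Both are the 250 bases before the RefSeq start on the gene's strand, from GRCh38.p14: RARA at chr17:40308930-40309179 and RARB at chr3:25428013-25428262, both on the plus strand. Capitals mark AGGTCA, the element that most of these receptors recognise, in RARA, and the direct repeat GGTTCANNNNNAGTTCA in RARB.
RARA: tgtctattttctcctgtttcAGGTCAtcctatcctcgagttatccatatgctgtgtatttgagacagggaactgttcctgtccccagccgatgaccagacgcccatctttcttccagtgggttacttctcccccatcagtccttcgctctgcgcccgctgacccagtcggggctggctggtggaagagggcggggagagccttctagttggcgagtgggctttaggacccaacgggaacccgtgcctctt
RARB: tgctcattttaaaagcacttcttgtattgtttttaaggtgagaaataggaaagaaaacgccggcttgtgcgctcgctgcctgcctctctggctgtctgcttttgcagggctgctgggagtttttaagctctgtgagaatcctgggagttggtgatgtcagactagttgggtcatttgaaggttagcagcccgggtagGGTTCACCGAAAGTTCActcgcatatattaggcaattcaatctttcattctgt

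The RARB repeat begins 53 bases before the start. On both strands, 5 of 27305 promoters of this length (0.0183%) held it, and RARB was the sole receptor gene among the 36 of the 41 with a promoter in the table. AGGTCA, which begins 230 bases before the RARA start, was found in 12.1% of all promoters and in 7 of the 36 receptor promoters (19.4%). Among expressed receptors it was in RARA and NR1H3. The table had no entry for HNF4G, NR0B2, NR2F6, NR4A2 and VDR. A match describes letters in this window and is not a bound site.

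RARA encodes RARα. Its level went from 16.8 CPM in DMSO to 39.4 CPM in E2 in the parental line, from 40.8 to 50.2 in clone 1 and from 24.9 to 49.6 in clone 2. The E2 libraries were close together and the DMSO libraries were spread. E2 exceeded DMSO within every line, but the DMSO library of clone 1 lay above the parental E2 library, so the groups overlapped. Parental cells gave a ratio of 2.34-fold, clone 1 of 1.23-fold and clone 2 of 1.99-fold. Over the 3 lines the log2 change was 0.81 (SE 0.22, adjusted p = 0.148, edgeR), and in the paired fit 0.84 (SE 0.19, adjusted p = 0.0825). DESeq2 gave an adjusted p of 0.0185. Leaving out clone 1 gave a log2 change of 1.09 (edgeR adjusted p = 0.00576), and leaving out clone 2 gave 0.76 (adjusted p = 8.92e-04). Those fits, which leave 1 residual degree of freedom and an infinite prior, called 745 (4.83%) and 3353 (21.6%) of all genes. Without the parental line the change was 0.60 (adjusted p = 0.562). The antisense gene RARA-AS1, whose exons share 556 bases with RARA, had 11 to 25 counts per library.

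RARG encodes RARγ, a paralog prominent in epithelia. Its parental levels were 38.2 CPM (DMSO) and 40.5 CPM (E2), clone 1 had 47.0 and 39.3, and clone 2 had 72.9 and 47.0. Clone 2 in DMSO stood above all other libraries. Across the clones the mean was 60.0 ± 18.3 CPM in DMSO and 43.2 ± 5.47 in E2 (SD, n = 2). In the unpaired test of the clones the log2 change was -0.48 (SE 0.24, adjusted p = 0.628, edgeR).

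RARB encodes RARβ, whose transcription retinoic acid is known to raise. In the parental line it stood at 1.28 CPM in both treatments (38 and 48 counts). In clone 1 it went from 4.33 CPM under DMSO to 2.78 CPM under E2, and in clone 2 from 2.56 to 1.02 CPM. Vehicle values of both clones exceeded the parental ones, and clone 2 in E2 was the lowest of the 6. Over the clones the means were 3.44 ± 1.25 CPM in DMSO and 1.90 ± 1.24 in E2 (SD, n = 2), and the unpaired log2 change was -0.86 (SE 0.53, adjusted p = 0.694, edgeR). Its exons share 28 bases with TOP2B on the opposite strand, which had 254 to 400 CPM.

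The response with ETV4 knocked out was tested in the 4 libraries of the clones. No receptor of 29 passed, where 49 of 14881 genes (0.329%) did, and RARA alone had an unadjusted p under 0.05, where 8.70% of genes did (log2 change 0.60, SE 0.24, adjusted p = 0.562, edgeR). DESeq2 also called 0 receptors, of 37 it tested, among 312 genes (1.55%). In the paired fit, 4 receptors passed among 2227 genes (15.0%). RARA rose by 0.63 on the log2 scale (SE 0.13, adjusted p = 3.98e-05) and NR6A1 by 0.49 (SE 0.16, adjusted p = 0.0149). RARG fell by 0.45 (SE 0.13, adjusted p = 0.00644) and RARB fell by 0.92 (SE 0.24, adjusted p = 0.00221). The count of 4 among 29 is near the share over all genes. That fit leaves 1 residual degree of freedom and an infinite prior, so each p-value uses the spread pooled over genes.

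**Figure D3:**
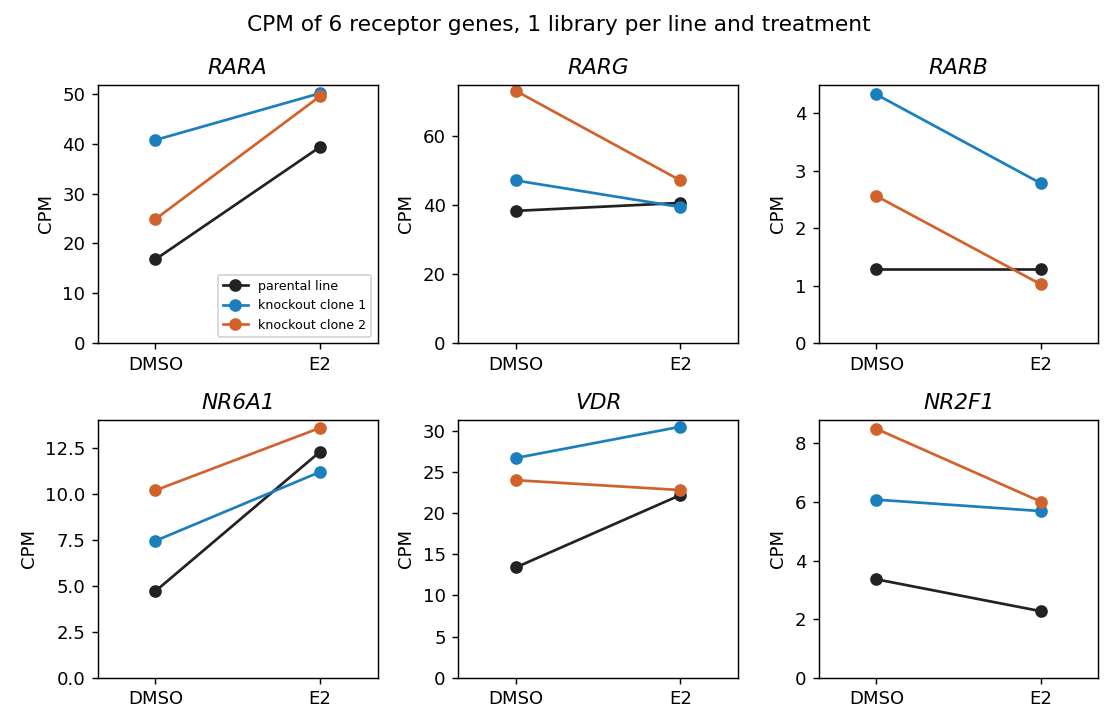
Level in CPM (linear axes from 0) of RARA, RARG, RARB, NR6A1, VDR and NR2F1 in DMSO and E2, with a line joining the 2 libraries of each cell line (black parental, blue clone 1, orange clone 2). RARA and NR6A1 slope upward in all 3 lines, RARG and RARB slope downward in both clones, and both parental points of NR2F1 (3.36 and 2.27 CPM) lie under all 4 clone points.

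NR6A1, the germ cell nuclear factor, is an orphan repressor known from germ cells and the early embryo. Its upstream sequence is shown because it holds CCGGAAG, a core that ETS factors such as ETV4 recognise. The 250 bases before the RefSeq start are at chr9:124771312-124771561 (GRCh38.p14) on the minus strand, with the core in capitals, 220 bases before the start.
NR6A1: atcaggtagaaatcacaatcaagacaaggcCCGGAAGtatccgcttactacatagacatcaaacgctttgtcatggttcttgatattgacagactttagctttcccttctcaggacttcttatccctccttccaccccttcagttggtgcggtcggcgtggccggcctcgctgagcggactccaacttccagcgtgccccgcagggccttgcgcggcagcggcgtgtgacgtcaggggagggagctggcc

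On both strands CCGGAAG was present in 8.82% of the 27305 promoters and in 3 of 36 receptor promoters (8.33%), those of NR6A1, NR1H2 and PPARA. The receptor share was near the share of all promoters. NR6A1 went from 4.71 to 12.3 CPM with E2 in the parental line, from 7.45 to 11.2 in clone 1 and from 10.2 to 13.6 in clone 2. Each E2 library was above all 3 DMSO libraries, which was so for 2 of the 23 expressed receptors, NR6A1 and ESRRA (8.70%), and for 13.1% of tested genes at that level. The ratios were 2.59-fold, 1.50-fold and 1.34-fold. Over the 3 lines the log2 change was 0.78 (SE 0.25, adjusted p = 0.177, edgeR), in the paired fit 0.78 (SE 0.21, adjusted p = 0.102), and by DESeq2 the adjusted p was 0.0485. Without clone 2 the edgeR log2 change was 0.97, without clone 1 it was 0.87 and without the parental line 0.48 (adjusted p = 0.634). Of these fits, NR6A1 passed the threshold in the one without clone 2, which called 21.6% of all genes.

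ESRRA, the estrogen-related receptor α that drives mitochondrial genes, does not bind estradiol in spite of its name. Its level was 18.4, 22.0 and 20.7 CPM in DMSO in the parental line, clone 1 and clone 2, and 31.1, 26.0 and 28.3 CPM in E2. All E2 libraries lay above all DMSO libraries, with a log2 change of 0.48 (SE 0.14, adjusted p = 0.159, edgeR). Without clone 2 the edgeR log2 change was 0.50, without clone 1 it was 0.58 and without the parental line 0.34 (adjusted p = 0.597). Of these fits, ESRRA passed the threshold in the one without clone 2, which called 21.6% of all genes. Its exons share 284 bases with TRMT112 on the opposite strand, which had 57.4 to 109 CPM and its highest value in the parental DMSO library.

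NR2C2 and NR2C1, the testicular receptors TR4 and TR2, are orphans that can form a dimer. NR2C2 had 57.7, 70.7 and 93.3 CPM in DMSO and 104, 88.6 and 106 in E2 in the same order of lines, a log2 change of 0.45 (SE 0.18, adjusted p = 0.238, edgeR). Without clone 2 the edgeR change was 0.59, without clone 1 it was 0.49 and without the parental line 0.24 (adjusted p = 0.767). Of these fits, NR2C2 passed the threshold in the one without clone 2, which called 21.6% of all genes. NR2C2 shares 756 exon bases with MRPS25 on the opposite strand. MRPS25 went from 33.6 to 71.7 CPM in the parental line, from 42.0 to 62.8 in clone 1 and from 41.9 to 66.0 in clone 2, and since the use of strand in counting is not given, reads of the 2 genes cannot be told apart there. NR2C1 stayed between 44.9 and 57.0 CPM: 54.8, 52.0 and 49.9 in DMSO and 44.9, 53.0 and 57.0 in E2.

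RXRA encodes RXRα, the heterodimer partner. It had 36.9, 56.3 and 54.3 CPM in DMSO and 55.4, 72.5 and 55.0 in E2. The parental DMSO library was the lowest and clone 1 in E2 the highest. VDR, the vitamin D receptor, had 13.4, 26.7 and 24.0 CPM in DMSO and 22.2, 30.5 and 22.8 in E2. Again the parental DMSO library was the lowest, and the parental E2 library came close to clone 2. PPARD had 63.7, 82.6 and 96.6 CPM in DMSO and 86.2, 75.0 and 84.0 in E2, higher with E2 in the parental line (log2 ratio 0.44) and lower in both clones (-0.14 and -0.20). PPARA, the fatty acid receptor of oxidative tissues, ran from 15.8 to 28.7 CPM.

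Thyroid hormone receptor genes had small ratios of E2 to DMSO. THRA had 43.9, 48.6 and 42.0 CPM in DMSO and 40.0, 42.6 and 34.8 in E2, and THRB ran from 11.7 to 25.1 CPM. Log2 ratios of E2 to DMSO were -0.13, -0.19 and -0.27 for THRA and -0.16, -0.25 and -0.13 for THRB in the parental line, clone 1 and clone 2. Of the oxysterol receptors, NR1H2 had 29.1, 32.7 and 34.7 CPM in DMSO and 32.0, 29.3 and 31.0 in E2, while NR1H3 (LXRα) ran from 9.39 to 14.7 CPM and shares 189 exon bases with ACP2 on the opposite strand. NR2F6 had 105, 96.5 and 122 CPM in DMSO and 136, 99.1 and 109 in E2.

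NR1D1 and NR1D2 encode the heme-binding clock repressors REV-ERBα and REV-ERBβ, and RORA encodes an activator that competes for the same elements. NR1D2 had 52.3, 72.3 and 67.0 CPM in DMSO and 41.6, 71.4 and 58.5 in E2, lower with E2 in each line by a log2 ratio of -0.33, -0.02 and -0.19. NR1D1 ran from 2.93 to 4.73 CPM, sharing 263 exon bases with THRA on the opposite strand, and RORA ran from 1.21 to 2.70 CPM. The immediate-early orphan NR4A1 (7.93 to 17.0 CPM) had log2 ratios of E2 to DMSO of 0.40 in parental cells, 0.37 in clone 1 and 0.04 in clone 2. For its paralog NR4A2 (3.56 to 7.17 CPM) they were 0.17, 0.09 and -0.60. HNF4G, a receptor of gut and liver epithelium, ran from 1.91 to 3.66 CPM. For NR2F1 the log2 ratios were -0.55, -0.10 and -0.50 in the parental line, clone 1 and clone 2.

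In all, 7 of the 23 expressed receptors were higher with E2 in all 3 lines (30.4%, against 27.3% of genes) and 4 were lower in all 3 (17.4%, against 26.5%). A 2-fold increase was reached by 2 in the parental line (8.70%, against 8.62%) and by 0 in either clone (2.25% and 2.04% of genes). A 2-fold decrease was reached by RARB in clone 2 (4.35%, against 1.34%), from 75 to 30 counts. In the parental line no receptor reached a 2-fold decrease (0%, against 4.17%), and for none was every E2 library below every DMSO library (0%, against 11.4%).

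The knockout comparison asked which receptors differed between clones and parental line with treatment taken into account. None of 31 receptors passed, where 51 of 15611 genes (0.327%) did. At an unadjusted p under 0.05 there were 11 receptors of 31, all higher in the clones, where 1787 of all genes (11.4%) were in either direction. DESeq2 called 3 of the 39 it tested, NR2F1, NR4A1 and THRB, among 451 genes (2.19%). With line as a random block, 46 genes (0.295%) and 0 receptors passed. The median log2 difference of the 23 expressed receptors was 0.39, with 19 above 0 and 4 below, beside 0.00 over all tested genes at 1 CPM or more.

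**Figure D4:**
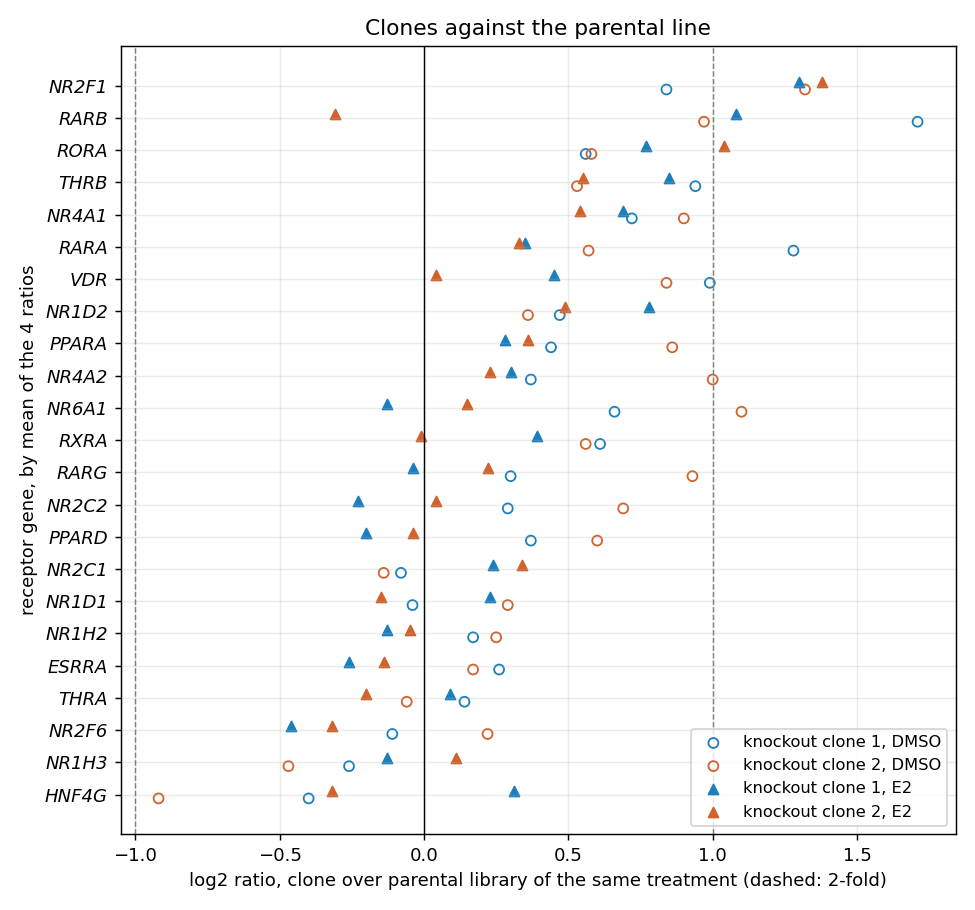
Difference of each knockout clone from the parental line for the 23 expressed receptor genes (rows), as a log2 ratio of single libraries within DMSO (open circles) and within E2 (filled triangles), in blue for clone 1 and orange for clone 2, with dashed lines at 2-fold. NR2F1 has ratios of 0.84 and 1.32 in DMSO and 1.30 and 1.38 in E2, all to the right of 0, while the E2 ratios of NR6A1, RARG and NR2C2 lie near it.

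NR2F1 (COUP-TFI), an orphan that mostly represses transcription, stood at 3.36 CPM (DMSO) and 2.27 CPM (E2) in the parental line, at 6.08 and 5.69 in clone 1 and at 8.50 and 6.01 in clone 2. All 4 clone libraries were above both parental libraries. The log2 difference was 1.24 (SE 0.23, adjusted p = 0.122, edgeR, and 7.36e-04, DESeq2). It was 1.36 without clone 1 and 1.08 without clone 2. In E2 it was the 1 expressed receptor at least 2-fold above the parental line in both clones (4.35%, against 0.842% of genes), and in DMSO there was none (2.73% of genes).

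THRB, the thyroid hormone receptor β, had 13.1 and 11.7 CPM in the parental line, 25.1 and 21.1 in clone 1 and 18.9 and 17.3 in clone 2 (log2 difference 0.73, SE 0.18, adjusted p = 0.227, edgeR). Without clone 2 it was 0.90 and without clone 1 0.53. The paralog THRA had a log2 difference of 0.00 (SE 0.14). NR4A1 (NUR77), an orphan induced by stress and mitogens, had 7.93 and 10.5 CPM in the parental line, 13.1 and 17.0 in clone 1 and 14.8 and 15.3 in clone 2. Its log2 difference was 0.72 (SE 0.16, adjusted p = 0.182, edgeR), with 0.71 without clone 2 and 0.70 without clone 1. Clone and parental libraries did not overlap for either gene.

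Altogether 8 of the 23 expressed receptors had all 4 clone libraries above both parental libraries (34.8%, against 8.21% of tested genes), and 0 had them all below (8.12% of genes). The 8 were NR2F1, THRB, NR4A1, NR1D2, VDR, PPARA, NR4A2 and RORA. The log2 difference was 0.53 for NR1D2 (SE 0.14, adjusted p = 0.258, edgeR), 0.58 for VDR (SE 0.21, adjusted p = 0.381), 0.49 for PPARA (SE 0.17, adjusted p = 0.375) and 0.77 for RORA (SE 0.27, adjusted p = 0.366). Since the parental line gave 2 libraries of a single culture line, this is a difference between these lines. In DMSO both clones exceeded the parental line for 17 of 23 receptors (73.9%, against 41.2% of genes) and were under it for 3 (13.0%, against 41.8%). In E2 the counts were 10 above (43.5%, against 35.9%) and 4 below (17.4%, against 32.7%).

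Without clone 2, 8 receptors passed the edgeR knockout test among 996 genes (6.41%), all higher: RARA, RARB, THRB, NR1D2, RORB, VDR, NR2F1 and NR4A1. For RARA the log2 difference went from 0.64 (adjusted p = 0.391) to 0.81 (6.19e-04), for RARB from 0.98 (0.482) to 1.44 (4.41e-04), for VDR to 0.72 (0.00477), for NR1D2 to 0.62 (0.0188), and for RORB from 1.57 (0.427) to 2.13 (5.34e-05). Without clone 1, 2 receptors passed among 631 genes (4.09%): NR2F1, and PPARG with a log2 difference of -4.05 (adjusted p = 0.0284), which rests on 0 and 1 counts in clone 2. Those fits leave 1 residual degree of freedom and an infinite prior.

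Whether the E2 change differed between the clones and the parental line was tested as an interaction. No receptor of 31 and no gene of 15611 (0%) passed, while 1190 genes (7.62%) and 0 receptors had an unadjusted p under 0.05. DESeq2 called 56 genes (0.272%). It gave none of the 39 receptors an adjusted p here, so it could not call any of them. In the paired fit, 2470 genes (15.8%) and 3 receptors passed, all with a smaller E2 change in the clones. The difference in log2 change was -0.88 for NR6A1 (SE 0.28, adjusted p = 0.0181), -0.67 for VDR (SE 0.22, adjusted p = 0.0251) and -0.59 for RARA (SE 0.22, adjusted p = 0.0443). PPARD (-0.61, adjusted p = 0.0526) and NR2C2 (-0.59, adjusted p = 0.0662) did not pass. The 3 receptors of 31 are a smaller share than the 15.8% of all genes. This fit too has 1 residual degree of freedom and an infinite prior.

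The E2 change was larger in the parental line than in both clones for 15 of the 23 expressed receptors (65.2%, against 44.6% of genes) and smaller than in both for 6 (26.1%, against 41.7%). For 13 receptors the parental DMSO library was the lowest of the 6 (56.5%, against 32.0%), and for 2, NR1H3 and HNF4G, the highest (8.70%, against 34.5%). The parental E2 change, the difference of the clones in DMSO and the interaction all use that unreplicated library. They are therefore not independent of each other.

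GC content moved with these differences. The expressed receptors had a median transcript GC of 55.4%, against 48.6% for tested genes, of which 96.6% had a value. Across 15085 genes (genes are no replicates, and no test was made), the rank correlation rho of GC with the E2 ratio was 0.335 for the parental line, 0.133 for clone 1 and -0.0106 for clone 2. When genes were put into 10 equal bins of GC, the parental median log2 ratio went from -0.35 in the lowest bin to 0.43 in the highest. For the clones against the parental line in DMSO, rho was 0.181 and 0.313, and in E2 it was -0.281 and -0.0460.

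**Figure D5:**
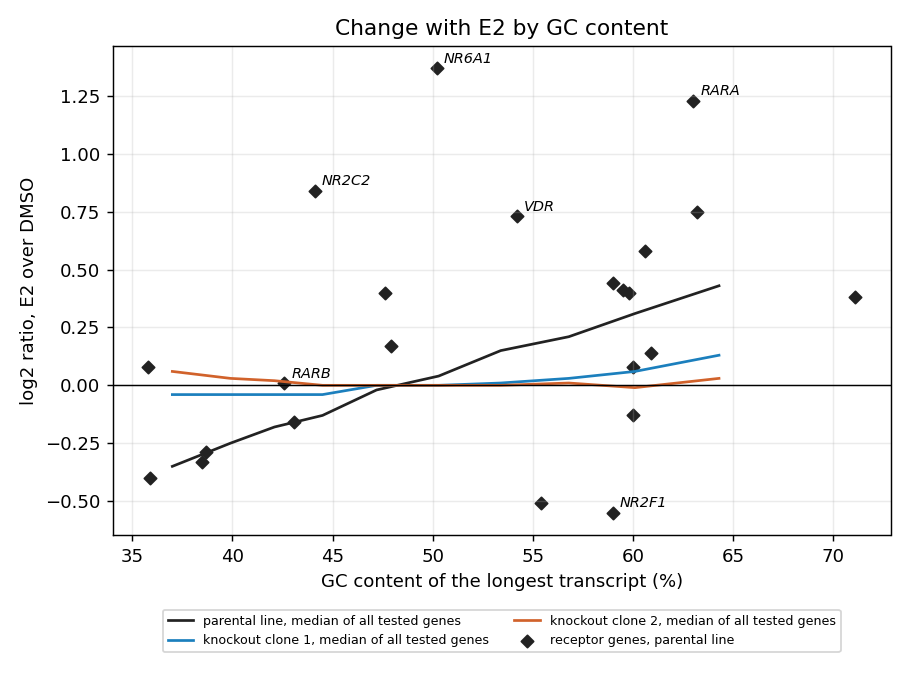
Log2 ratio of E2 over DMSO against the GC content of the longest transcript in percent. Lines join the medians of all tested genes in 10 equal bins of GC, in black for the parental line, blue for clone 1 and orange for clone 2; diamonds are the 23 expressed receptors in the parental line. The parental median climbs from -0.35 to 0.43 while both clone lines stay near 0.

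Set against genes of the same GC bin in the parental line, RARA (GC 63.0%) had a log2 ratio of 1.23 beside a median of 0.43, and NR6A1 (50.2%) had 1.37 beside 0.04. VDR (54.2%) had 0.73 beside 0.15, NR2C2 (44.1%) had 0.84 beside -0.13, and ESRRA (63.2%) had 0.75 beside 0.43. After each library's trend on GC content and length was removed, an alternative chosen after seeing the data, the interaction was -0.58 for NR6A1, -0.38 for VDR and -0.27 for RARA, and with the replicate block no receptor passed (smallest adjusted p = 0.0862, RXRA) among 1710 genes (11.0%). The median interaction over the expressed receptors was -0.35 before and -0.17 after that step. In the knockout test the median was 0.30 after it, with NR2F1 at 1.17 (SE 0.22, adjusted p = 0.0898, edgeR).

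Genes on which these receptors act were read from 10 lists of targets and partners. The lists were chosen with earlier results of these data known, so their shares of calls only describe them. Of 114 distinct genes tested over the 3 lines, 7 rose and 2 fell with E2 (edgeR, adjusted p under 0.05), and 0 passed the knockout test (1.13% and 0.327% of all genes passed). The median over all tested genes was -0.02 for E2 and 0.01 for the knockout.

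Among 12 retinoic acid receptor targets tested, 3 rose, none fell and the median was 0.00. DHRS3, a retinaldehyde reductase that lowers retinoic acid production, went from 1.28 to 48.6 CPM in the parental line, from 3.43 to 69.8 in clone 1 and from 1.47 to 78.2 in clone 2. The log2 ratios were 5.18, 4.32 and 5.68 (adjusted p over the 3 lines = 0.00259, edgeR), and all E2 libraries were above all DMSO libraries. TGM2, a transglutaminase, rose by 1.03 (SE 0.13, adjusted p = 0.0211) and NRIP1, a corepressor that also binds the estrogen receptor and is a known estrogen target, rose by 1.12 (SE 0.12, adjusted p = 0.0143).

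Thyroid hormone receptor targets gave 1 gene of 6, HR (hairless), a corepressor of these receptors, with 10.5, 16.5 and 18.9 CPM in DMSO and 83.0, 65.0 and 85.2 in E2 (log2 change 2.38, SE 0.23, adjusted p = 0.00748, edgeR). The list's median was 0.20. PPAR targets gave 1 of 13, PLIN4, a lipid droplet coat protein, which rose by 3.19 (SE 0.27, adjusted p = 0.00540) from 1.11 to 11.0 CPM in the parental line, from 1.93 to 26.9 in clone 1 and from 3.69 to 22.4 in clone 2, while the list's median was -0.27. LXR targets gave 1 of 14: ABCG1, a cholesterol exporter, fell by 1.97 (SE 0.32, adjusted p = 0.0476), from 1.58, 2.04 and 1.47 CPM in DMSO to 0.347, 0.411 and 0.547 in E2, with a median of -0.16. In the paired fit MLXIPL, a glucose-sensing lipogenic factor on the same list, rose by 1.67 (adjusted p = 0.0369).

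Of 4 vitamin D, PXR and CAR targets tested, IGFBP3, which binds insulin-like growth factors, fell by 1.45 (SE 0.19, adjusted p = 0.0261, edgeR) and the median was -0.03. PPARGC1B, the coactivator PGC-1β of the estrogen-related receptors, rose by 1.74 (SE 0.22, adjusted p = 0.0211), from 7.70, 11.5 and 13.1 CPM in DMSO to 38.4, 29.8 and 37.6 in E2. It was the 1 of 18 in the ERR list (median 0.05) and, with NRIP1, 1 of 2 among 20 corepressors and coactivators (median 0.10). FGF19, an intestinal hormone known as an FXR target, rose by 3.53 (SE 0.31, adjusted p = 0.00645) from 0.112 to 0.370 CPM in DMSO to 1.61 to 3.71 in E2, as 1 of 10 NR4A and NR5A partners and targets (median -0.10).

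The 17 clock genes had 0 calls and a median of 0.12. In the paired fit DBP, a clock output factor, fell by 1.01 and BHLHE41, a clock repressor, rose by 1.27 (both adjusted p = 0.0422). The 4 tested HNF4 targets had 0 calls and a median of 0.79. In the clones alone, DHRS3 rose by 4.89 (adjusted p = 0.0166), PLIN4 by 3.13 (0.0342) and HR by 2.08 (0.0228). For the knockout the list medians ran from -0.70 in the 4 vitamin D, PXR and CAR targets to 0.25 in the NR4A and NR5A list.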

How the data were processed

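Per the labels' protocols, poly(A)-selected libraries were made with a stranded kit. The authors deposited whole-number counts per gene symbol. Per the submitters' processing notes the tools were HISAT2, SAMtools, Subread and DESeq2 and the build hg19. Their roles, versions, the annotation and the use of strand in counting are not given in the sources used here. A second, normalized table was not used.

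Counts were tested in R 4.3.3 with edgeR 4.0.16 (TMM scaling, filterByExpr on the 4 groups, quasi-likelihood test, Benjamini-Hochberg adjustment over all genes tested). The E2 and knockout effects came from 1 model of 6 libraries with genotype and treatment, the clones from their 4 libraries, and the interaction from 6 libraries. SE is the log2 coefficient's size over the square root of F. CPM use TMM-scaled totals, ratios of single libraries add a prior count of 2, and exon lengths and GC come from GENCODE. The 4 edgeR tests without pairing were tried on simulated counts, which held no difference between clones. The paired, DESeq2 and GC-corrected fits and those with a line left out were not. The labels do not say whether the 2 libraries of a line came from separate cultures, so p-values measure only the spread between these samples, which may be technical.

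DMSO and E2 libraries of a line share that cell line, which pairs them. The difference between the clones in DMSO and in E2 had r = 0.628 across 15611 genes. As replicate block, line entered as a factor, or for the knockout a random effect in limma 3.58.1. Alternatives also included DESeq2 1.42.0.

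The receptors and lists were chosen with earlier results of these data known. The rule for named genes gave every receptor at 1 CPM or more with its values, those with an adjusted p under 0.05 in any of the 4 tests, or else the 12 highest, in every library, the rest by counts, and up to 5 passing genes per list. Per-library values of NR2F1, THRB and NR4A1 were added after their values were seen.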

Additional observations from a re-analysis of the deposited data

Results flagged for a closer look

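In the fit with the replicate block, the change with E2 differed between the clones and the parental line for 3 receptors of 31, a smaller share than the 15.8% of all genes that passed that fit. The E2 change in the clones minus that in the parental line was -0.59 on the log2 scale for RARA, -0.67 for VDR and -0.88 for NR6A1. The log2 ratio of E2 to DMSO for RARA was 1.23 (parental), 0.30 (clone 1) and 0.99 (clone 2). For VDR it was 0.73, 0.19 and -0.08, and for NR6A1 1.37, 0.58 and 0.42, in the same order. In DMSO the parental library was the lowest of the 6 for all 3 genes. No receptor passed the interaction test without the block, or with the block after the GC and length correction.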

How the results depend on the processing

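The fits that pair the libraries of a line (replicate block) moved the number of genes passing from 176 to 384 (2.46%) for E2 over 3 lines. In the clones it went from 49 to 2227 (15.0%) and for the interaction from 0 to 2470 (15.8%). Receptors passing went from 0 to 4 of 29 in the clones and from 0 to 3 of 31 for the interaction. The block changed no other count of receptors passing. DESeq2 called 1111 genes (5.39%) for E2, 451 (2.19%) for the knockout, 312 in the clones and 56 for the interaction. Receptors called were 2 of 39 for E2 and 3 of 39 for the knockout. Correcting for GC content and length, an alternative added after seeing the data, gave 397 genes for E2 and 113 for the knockout. With the block added it gave 1659 genes (10.6%) and 1 receptor of 31 (NR6A1) for E2. In the clones it gave 3053 genes (20.5%) and 6 receptors of 29, near the share of all genes. For the interaction it gave 1710 genes (11.0%) and 0 receptors. With a line left out, the E2 test called 49 to 3353 genes and 0 to 4 receptors, and the knockout test 631 to 996 genes and 2 to 8 receptors. Leaving a line out of the clones' fit or the interaction left no residual degrees of freedom, and without the parental line there is no knockout contrast.

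Small log2 changes turned sign, none of them past the threshold. For E2, NR2F6 gave -0.09 and PPARD -0.11 with the GC and length correction, alone and with the block, and NR2C1 gave 0.02. With a line left out NR2F6 ran from -0.08 to 0.21, PPARD from -0.18 to 0.15, NR2C1 from -0.13 to 0.10, NR4A2 from -0.30 to 0.13 and HNF4G from -0.15 to 0.25 (-0.01 in limma-voom). For the knockout, THRA gave 0.01 with at least 10 counts in every library and -0.15 to 0.12 with a clone left out. ESRRA gave 0.00 with median-ratio scaling and in limma-voom, and -0.01 by DESeq2 and with the block, and 0.00 with either clone left out. For the interaction, the correction gave THRA 0.36 (0.37 with the block), THRB 0.12 (0.13), NR4A1 0.11 (0.11) and NR1D1 0.05 (0.04). The cause was not tested. Of 828 log2 changes under alternatives, 768 kept direction and side of the threshold, 32 passed it in addition and 28 turned sign. Some of the 32 come from knockout fits with a clone left out, which compare single lines. Scaling by total counts shifts ratios with the parental DMSO library by 0.17 to 0.21 on the log2 scale, which turned THRA with E2 in the parental line to 0.04 and NR2C1 in both clones in DMSO to 0.09 and 0.08. The number of expressed receptors ran from 22 to 26 under other thresholds and from 23 to 25 with a line left out.

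The parental line has 1 library per treatment and the clones 2, so a difference seen in 1 line has no replicate check. Receptors under 1 CPM had at most 74 counts in any library.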

Other observations

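Several receptors with few counts differed between the 2 clones. ESRRG, an estrogen-related receptor of oxidative tissues, had 22 and 5 counts in clone 1 and 0 in both libraries of clone 2. PPARG had 9 in each library of clone 1, against 0 and 1 in clone 2. RORB had 74 and 48 in clone 1, 25 and 14 in clone 2, and 12 and 16 in the parental line. These differences between single clones were not tested.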
